A study of Rattus norvegicus with 16 samples.

Results

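The extracellular matrix genes of 2 tissues, epididymal fat and liver, were followed in rats fed R-α-lipoic acid (LA) or pair-fed without it (PF). The genes were chosen by name, as every symbol that begins as a collagen chain (Col), a laminin chain (Lama, Lamb or Lamc), a matrix metalloproteinase (Mmp), a tissue inhibitor of metalloproteinases (Timp) or an Adamts protease, and by level, at 1 FPKM or more in at least 4 of 16 libraries. Of 22517 symbols, 92 matched by name and 53 also passed the level. Among the 53, Col4a3bp encodes a ceramide transfer protein and matches by its letters alone, which leaves 52 matrix genes: 23 collagen chains, 7 laminin chains, 8 Mmp genes, 4 Timp genes and 10 Adamts genes. Counts of members below include Col4a3bp, whereas summed levels leave it out. FPKM scale fragments by transcript length and by how many fragments of the library were mapped, which puts levels of different genes on a common scale. Ratios between genes still depend on how well each level was estimated, which was not tested.

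All 8 rats were obese males of the strain ZDF/GmiCrl-fa/fa, Zucker diabetic fatty rats that lack a working leptin receptor. From 9 weeks of age they received the diet Purina 5008 with LA, a cofactor of mitochondrial dehydrogenases, or Purina 5008 without LA by pair-feeding, for 2 weeks, and both tissues were taken at 11 weeks. The groups, of 4 libraries each, were LA fat, PF fat, LA liver and PF liver. No lean rats and no rats feeding freely without LA were in these groups, the dose of LA is not given in the sources used here, and the labels do not say which fat and liver libraries share a rat.

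Collagens are built from 3 alpha chains wound into a triple helix. Fibrillar collagens I, III and V form the tension-bearing fibres of connective tissue, collagen VI forms beaded filaments around cells, and collagen IV forms the mesh of basement membranes together with laminins, which are trimers of an alpha, a beta and a gamma chain. Adipocytes each sit in a basement membrane, whereas the sinusoids of a healthy liver have no continuous one. Mmp and Adamts enzymes cut matrix proteins, and Timp proteins block Mmp enzymes.

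Adipocyte markers summed to 34520 to 42907 FPKM in the fat libraries and to 59.4 to 73.3 FPKM in the liver libraries, where Adipoq, Plin, Lep and Retn were listed at 0 throughout. Hepatocyte markers summed to 37.8 to 348 FPKM in fat and 28033 to 45627 FPKM in liver. Total read numbers are unknown. The value of a single fragment, relative to PF liver replicate 1, was 0.740 to 0.865 in LA fat, 0.774 to 0.959 in PF fat, 0.722 to 0.895 in LA liver and 0.853 to 1 in PF liver. Within fat, LA replicates 2 and 4 and PF replicates 1 and 3 stood apart from the other 4 libraries: all 4 were above the other 4 for 15.8% of the genes tested and all 4 below for 9.69%. These libraries lie in both feeds. The feed comparison in fat and the difference of feed effects were run with and without a term for them, and the comparisons between tissues without it.

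Between the tissues, nearly all of the matrix genes had their higher level in fat. Their summed level was 3118 to 4126 FPKM in LA fat and 2785 to 3932 FPKM in PF fat, against 142 to 167 FPKM in LA liver and 149 to 167 FPKM in PF liver. Of 49 members tested under each feed, 42 were higher in LA fat than in LA liver and 40 were higher in PF fat than in PF liver (adjusted p under 0.05 and a log2 fold change over 1). Among all genes tested, 36% were called higher in fat under LA and 36.3% under PF. A single member was called lower in fat under each feed, where 10.5% of all genes were under LA and 11.1% under PF. In both directions together, 43 members were called under LA and 41 under PF, beside 46.4% and 47.4% of all genes. The median log2 fold change, fat over liver, was 3.47 under LA and 3.50 under PF, beside 0.65 and 0.66 over all genes. Median centring, which removes that general shift, left 34 members higher and 1 lower under LA, and 33 higher and 3 lower under PF. The groups did not overlap, with fat higher, for 45 of 49 members under each feed, as for 63.3% of all genes under LA and 62.9% under PF. A gene that is high in a single tissue passed the choice of members through that tissue, so these counts are a description. In tissue RNA, fewer matrix-making cells and less RNA per cell cannot be told apart.

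**Figure D1:**
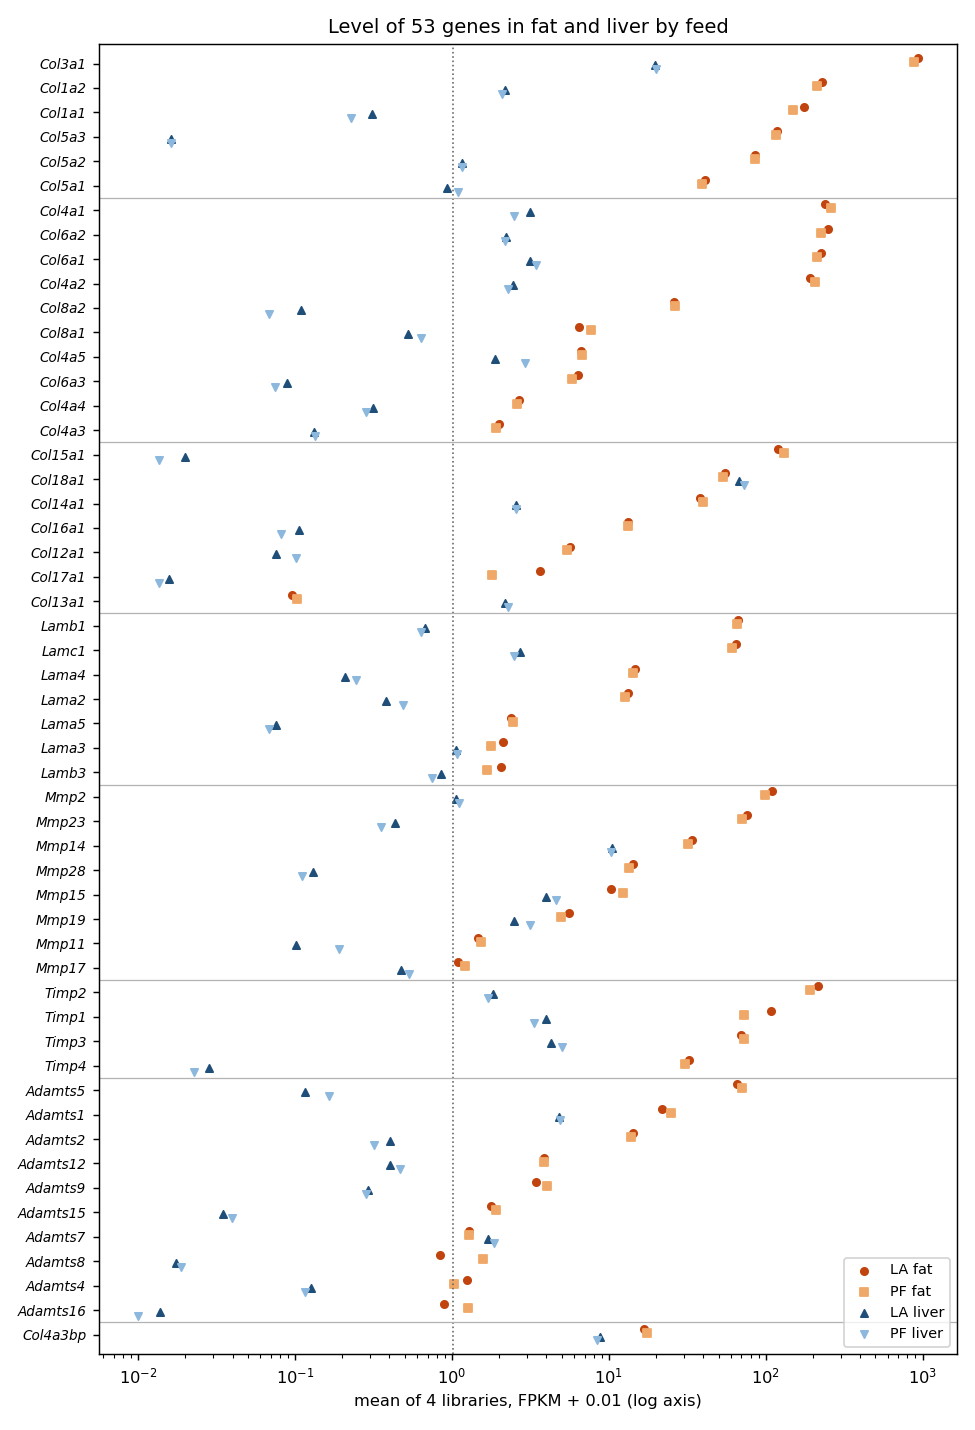
Mean level of each of the 53 genes in LA fat (circles), PF fat (squares), LA liver (upward triangles) and PF liver (downward triangles), as FPKM with 0.01 added, on a log axis. Rules separate the classes, from fibrillar collagens at the top to Col4a3bp at the bottom, and the dotted line marks 1 FPKM. Nearly all fat symbols lie to the right of the liver symbols. Col18a1, Adamts7 and Col13a1 lie the other way.

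The fibrillar collagens were the most abundant class in fat. Col3a1, the single chain of collagen III, had 1212, 951, 953 and 643 FPKM in LA fat, 873, 1061, 944 and 637 FPKM in PF fat, 18.9, 19.2, 16.9 and 24.1 FPKM in LA liver and 15.9, 23.0, 18.4 and 22.6 FPKM in PF liver. Fat and liver did not overlap, while the feeds overlapped in both tissues. Col1a1 and Col1a2 encode the 2 kinds of chain of collagen I, the main collagen of tendon and bone. Col1a1 had 238, 187, 169 and 107 FPKM in LA fat and 158, 183, 161 and 97.1 FPKM in PF fat, and Col1a2 had 272, 255, 211 and 177 FPKM in LA fat and 205, 249.8, 249 and 149.6 FPKM in PF fat. In liver Col1a2 stayed at 1.58 to 2.68 FPKM under LA and 1.79 to 2.38 FPKM under PF, and Col1a1 at 0.136 to 0.374 and 0.159 to 0.286 FPKM. The ratio of Col1a1 to Col1a2 was thus 0.603 to 0.876 in the fat libraries and 0.0858 to 0.195 in the liver libraries, with no overlap. The ratio of Col3a1 to Col1a1 was 5.08 to 6.56 in fat and 45.1 to 139 in liver, where Col1a1 did not exceed 0.374 FPKM.

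Collagen V chains, which sit inside collagen I fibrils and limit their width, differed among themselves. Col5a3 averaged 118 ± 18.2 FPKM in LA fat and 117 ± 17.3 FPKM in PF fat (SD, n = 4 each, as for the means below). In liver it did not exceed 0.0131 FPKM under LA and 0.0245 FPKM under PF. Col5a1 averaged 41.1 ± 6.99 FPKM in LA fat and 39.1 ± 9.01 FPKM in PF fat, and Col5a2 averaged 85.9 ± 6.94 and 85.2 ± 11.3 FPKM. Both were near 1 FPKM in liver. The ratio of Col5a3 to Col5a1 was 2.65 to 3.45 in fat, and 0 to 0.0205 in liver.

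Partner chains of collagen IV and of collagen VI differed in how close their levels were. Col4a1 and Col4a2, the 2 kinds of chain of the collagen IV trimer of most basement membranes, had a ratio of 1.14 to 1.29 in LA fat and 1.22 to 1.32 in PF fat, and of 1.13 to 1.40 in LA liver and 1.05 to 1.12 in PF liver. Col4a1 itself had 249, 275, 243 and 182 FPKM in LA fat and 328, 266, 243 and 202 FPKM in PF fat, and 2.74 to 3.38 FPKM in LA liver and 2.30 to 2.73 FPKM in PF liver. Col6a1 and Col6a2, partners in collagen VI, had a ratio of 0.880 to 1.02 in fat and 1.18 to 1.80 in liver. Col6a2 averaged 251 ± 26.4 FPKM in LA fat and 223 ± 52.9 FPKM in PF fat, against 2.19 ± 0.353 FPKM in LA liver and 2.18 ± 0.469 FPKM in PF liver. Col6a3, the largest chain of the classic collagen VI trimer and the source of the fragment endotrophin, was far lower on the same per-length scale. It had 4.05, 8.50, 4.90 and 8.06 FPKM in LA fat and 8.78, 3.33, 8.91 and 2.23 FPKM in PF fat, so its ratio to Col6a1 was 0.0137 to 0.0444 in fat. The minor collagen IV chains Col4a3 and Col4a4, known from kidney and eye, averaged 1.98 ± 0.749 and 2.65 ± 1.25 FPKM in LA fat and 1.90 ± 0.876 and 2.57 ± 0.521 FPKM in PF fat. Their ratio, Col4a3 over Col4a4, was 0.478 to 0.971 in fat. The highest liver value of either was 0.395 FPKM. Col8a1 and Col8a2, short chains that form networks beneath endothelium, averaged 6.44 ± 1.47 and 26.0 ± 2.86 FPKM in LA fat and 7.65 ± 2.03 and 26.3 ± 2.37 FPKM in PF fat, and reached at most 0.772 and 0.133 FPKM in liver.

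Among the laminins, Lamb1 and Lamc1, the beta and gamma chains of the commonest trimers, were nearly level with each other in fat and unequal in liver. Lamb1 had 65.7, 72.6, 64.3 and 62.6 FPKM in LA fat and 69.3, 62.5, 75.9 and 55.4 FPKM in PF fat, against 0.557, 0.561, 0.757 and 0.797 FPKM in LA liver and 0.441, 0.623, 0.554 and 0.895 FPKM in PF liver. Lamc1 averaged 64.3 ± 6.55 FPKM in LA fat and 60.6 ± 13.0 FPKM in PF fat, against 2.72 ± 0.147 FPKM in LA liver and 2.47 ± 0.350 FPKM in PF liver. Their ratio, Lamb1 over Lamc1, was 0.959 to 1.19 in fat and 0.192 to 0.302 in liver. The alpha chains, which bind cell receptors, were led in fat by Lama4, known from fat and vessel basement membranes, and Lama2, known from muscle. Lama2 averaged 13.2 ± 1.31 FPKM in LA fat and 12.7 ± 3.41 FPKM in PF fat, and its ratio to Lamc1 held at 0.193 to 0.224 over the 8 fat libraries. Lama3 and Lamb3, chains of the laminin that anchors epithelia, were the laminins nearest to equal between the tissues. Lama3 averaged 2.11 ± 0.651 FPKM in LA fat and 1.06 ± 0.258 FPKM in LA liver, and 1.77 ± 0.789 FPKM in PF fat and 1.06 ± 0.237 FPKM in PF liver. Its log2 fold change, fat over liver, was 0.58, SE 0.16, adjusted p = 0.00622 under LA and 0.39, SE 0.19, adjusted p = 0.0744 under PF, and turned to -0.09 and -0.29 with median centring.

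Of the 3 genes with a higher mean in liver, 2 were among the remaining collagens, Col18a1 and Col13a1, and the other was Adamts7, described with the Adamts genes. Col18a1, whose end fragment is endostatin, had 53.5, 64.7, 52.4 and 48.3 FPKM in LA fat and 70.0, 67.4, 59.1 and 75.0 FPKM in LA liver. In PF rats it had 58.9, 54.5, 61.9 and 38.4 FPKM in fat and 68.0, 70.7, 81.0 and 70.0 FPKM in liver. It was by far the most abundant collagen in liver, and its log2 fold change, fat over liver, was -0.31, SE 0.11, adjusted p = 0.0225 under LA and -0.45, SE 0.14, adjusted p = 0.0115 under PF, both within 1. With median centring the PF value was -1.12 and passed. Col15a1, its closest relative, which links basement membranes to the matrix around them, went the other way: it averaged 119 ± 26.3 FPKM in LA fat and 130.4 ± 16.4 FPKM in PF fat, and no liver library exceeded 0.0266 FPKM. Col13a1, a collagen that spans the cell membrane, was the member called lower in fat. It had 0.227, 0, 0.0490 and 0.0660 FPKM in LA fat and 2.08, 1.80, 2.15 and 2.67 FPKM in LA liver, and 0.0840, 0.113, 0.0689 and 0.105 FPKM in PF fat and 2.45, 2.71, 1.77 and 2.11 FPKM in PF liver. The fat and liver libraries did not overlap (log2 fold change -1.55, SE 0.11, adjusted p = 2.42e-07 under LA and -1.57, SE 0.11, adjusted p = 9.83e-08 under PF). Col14a1, which binds the surface of collagen I fibrils, averaged 38.3 ± 1.10 FPKM in LA fat and 39.7 ± 8.85 FPKM in PF fat, against 2.56 ± 0.415 FPKM in LA liver and 2.54 ± 0.428 FPKM in PF liver. Col16a1 averaged 13.2 ± 1.71 FPKM in LA fat and 13.2 ± 2.34 FPKM in PF fat and at most 0.136 FPKM in liver.

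The most abundant protease gene was Mmp2, gelatinase A, which digests denatured collagen and collagen IV. It had 125, 103, 109 and 100.1 FPKM in LA fat and 101, 86.4, 119 and 89.3 FPKM in PF fat, against 1.02, 1.16, 1.02 and 1.02 FPKM in LA liver and 0.781, 1.23, 1.17 and 1.20 FPKM in PF liver. Mmp14, the membrane enzyme that activates Mmp2, was the most abundant protease of this set in liver. It had 36.4, 36.6, 29.7 and 33.7 FPKM in LA fat and 34.8, 28.9, 35.5 and 28.2 FPKM in PF fat, against 10.4, 10.4, 11.1 and 9.76 FPKM in LA liver and 12.6, 8.18, 12.3 and 8.03 FPKM in PF liver. Mmp15, another membrane-bound enzyme, averaged 10.3 ± 1.66 and 12.3 ± 1.63 FPKM in LA and PF fat, and 3.97 ± 0.460 and 4.61 ± 0.603 FPKM in LA and PF liver. Under median centring the log2 fold changes of Mmp14 and Mmp15, fat over liver, were 0.94 and 0.51 under LA and 0.89 and 0.57 under PF, within 1. Mmp23 averaged 75.5 ± 13.7 FPKM in LA fat and 71.0 ± 6.70 FPKM in PF fat and reached at most 0.685 FPKM in liver. Mmp28, epilysin, averaged 14.2 ± 2.44 FPKM in LA fat and 13.4 ± 2.02 FPKM in PF fat and reached at most 0.181 FPKM in liver. Mmp19 averaged 5.56 ± 0.600 FPKM in LA fat and 4.98 ± 0.664 FPKM in PF fat, against 2.49 ± 0.445 FPKM in LA liver and 3.15 ± 0.881 FPKM in PF liver.

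Among the Adamts genes the aggrecan-cutting enzyme Adamts5 led in fat, at 54.2, 76.2, 62.3 and 70.3 FPKM in LA fat and 92.1, 52.7, 76.8 and 61.6 FPKM in PF fat. In liver it did not exceed 0.199 FPKM. Adamts1, which also cuts proteoglycans, led in liver. It averaged 21.8 ± 1.95 FPKM in LA fat and 24.8 ± 4.15 FPKM in PF fat, against 4.78 ± 0.383 FPKM in LA liver and 4.88 ± 0.296 FPKM in PF liver. Adamts2, which removes the end piece of fibrillar procollagens, averaged 14.3 ± 1.81 FPKM in LA fat and 13.8 ± 3.22 FPKM in PF fat, and reached at most 0.574 FPKM in liver. Adamts7 had a slightly higher mean in liver, at 1.28 ± 0.257 FPKM in LA fat and 1.69 ± 0.367 FPKM in LA liver, and 1.27 ± 0.414 FPKM in PF fat and 1.84 ± 0.210 FPKM in PF liver. Its fat and liver libraries overlapped under both feeds. With median centring its log2 fold change, fat over liver, was -1.01 under PF and passed.

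All 4 Timp genes passed the level and all 4 were higher in fat under both feeds. Timp2, which inhibits Mmp2 and also takes part in its activation, was the highest of them in fat, at 202, 216, 199 and 239.7 FPKM in LA fat and 178, 191, 221 and 176 FPKM in PF fat, against 1.80, 1.52, 2.00 and 1.91 FPKM in LA liver and 1.42, 2.01, 1.64 and 1.66 FPKM in PF liver. In liver its means were below those of Timp1 and Timp3. The ratio of Mmp2 to Timp2 was nevertheless close in both tissues, at 0.417 to 0.617 in fat and 0.508 to 0.763 in liver. Timp4 had 27.4, 42.2, 29.5 and 30.3 FPKM in LA fat and 28.6, 33.1, 28.4 and 31.9 FPKM in PF fat, and reached at most 0.0725 FPKM in liver. Timp3, which binds to the matrix and also inhibits Adamts enzymes, averaged 69.3 ± 17.9 FPKM in LA fat and 73.1 ± 15.3 FPKM in PF fat, against 4.29 ± 1.27 FPKM in LA liver and 5.03 ± 0.809 FPKM in PF liver.

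Of the 39 matching genes left out by level, 36 never reached 1 FPKM and 3 reached it in 1 to 3 libraries. Those just outside were Mmp12, macrophage elastase, with 3 libraries and a highest value of 5.14 FPKM, Mmp3, stromelysin, with 2 libraries and at most 6.61 FPKM, and Col7a1, of the fibrils that anchor skin, with 2 libraries and at most 1.30 FPKM. Mmp25 and the gelatinase Mmp9 reached 0.98 and 0.93 FPKM. Those just inside were Adamts4 and Adamts8, with 4 libraries each and at most 1.78 and 2.28 FPKM, and Adamts16, with 5 libraries and at most 1.60 FPKM. In all, 7 genes, Lamb2 and Col2a1 among them, were listed at 0 in all 16 libraries, which in these files can be a failed estimate.

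The feed comparison in liver asked which transcripts LA moved against pair-feeding. In liver, 24 members could be tested and 1 was called: Col4a5, a chain of minor basement membrane collagens, which fell in LA liver. Among all genes tested, 4.48% were called, and 2.21% were called lower. At an unadjusted p under 0.05 there were 2 of 24 members, Col4a5 and Col4a1, beside 20.1% of all genes. The median log2 fold change, LA over PF, was -0.01 over the members and -0.0020 over all genes, with 10 members higher and 14 lower in the mean. All 4 fibrillar chains tested in liver had log2 fold changes between -0.12 and 0.03, with Col3a1 at -0.01, SE 0.13, adjusted p = 0.978.

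Col4a5 had 1.56, 2.27, 1.98 and 1.69 FPKM in LA liver and 2.69, 3.02, 2.67 and 3.32 FPKM in PF liver. Every LA library was below every PF library (log2 fold change -0.45, SE 0.10, adjusted p = 0.0313). Such a lack of overlap, with LA lower, was seen for no other member and for 6.39% of all genes. The call is a narrow one: it was lost when any of 6 of the 8 libraries was left out, namely LA replicates 1, 3 and 4 and PF replicates 1, 2 and 4 (adjusted p 0.0584 to 0.0777), with no filter on low values (0.0715) and with all 16 libraries in one model (0.136). Over all alternatives the adjusted p ran between 0.0265 and 0.136 and the log2 fold change between -0.62 and -0.40.

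Col4a1 had 3.07, 3.38, 2.74 and 3.29 FPKM in LA liver and 2.36, 2.58, 2.30 and 2.73 FPKM in PF liver. Here every LA library was above every PF library, as for 5.89% of all genes, but the difference did not pass (log2 fold change 0.24, SE 0.09, adjusted p = 0.146). Its partner Col4a2 had 2.19, 3.00, 2.16 and 2.38 FPKM in LA liver and 2.16, 2.45, 2.04 and 2.48 FPKM in PF liver, which overlapped (log2 fold change 0.06, SE 0.10, adjusted p = 0.794). The ratio of Col4a5 to Col4a1 was 0.509 to 0.722 in LA liver and 1.14 to 1.22 in PF liver. Its separation by feed follows from that of the single genes and is no further support. In fat the same ratio was 0.0191 to 0.0418 in LA libraries and 0.0139 to 0.0359 in PF libraries, so the liver had far more Col4a5 for its Col4a1.

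**Figure D2:**
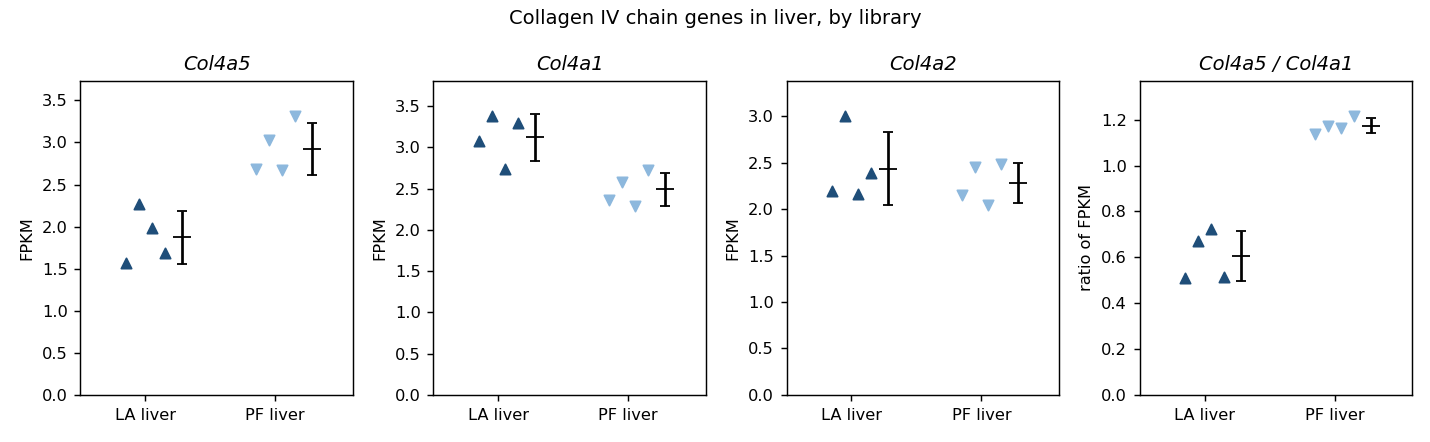
Level of Col4a5, Col4a1 and Col4a2 in FPKM and the ratio of Col4a5 to Col4a1 in each liver library. Upward triangles are LA liver, downward triangles PF liver, and the bar beside them is the mean with its SD over 4 libraries. The feeds separate for Col4a5 and Col4a1, in opposite directions, and overlap for Col4a2. The separation of the ratio follows from that of Col4a5 and Col4a1.

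The genes of these chains lie in head-to-head pairs in the RefSeq annotation of the rat assembly GRCr8, with starts 77 bases apart for Col4a1 and Col4a2, 413 for Col4a3 and Col4a4 and 1415 for Col4a5 and its neighbour. The stretches before the starts are shown because Col4a1 and Col4a5 separated by feed in liver in opposite directions, with Col4a3 given for the remaining pair. The first is the whole stretch between the Col4a1 and Col4a2 starts, the second the 250 bases before the Col4a3 start, and the third the part of the RefSeq promoter window of Col4a5 that lies before the earliest annotated start. All are RefSeq sequence, plus strand, 5′ to 3′, and capitals mark a GC box.
Col4a1 to Col4a2, chr16:84885521-84885596: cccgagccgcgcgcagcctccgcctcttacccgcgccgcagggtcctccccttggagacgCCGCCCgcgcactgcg
Col4a3, chr9:91323740-91323989: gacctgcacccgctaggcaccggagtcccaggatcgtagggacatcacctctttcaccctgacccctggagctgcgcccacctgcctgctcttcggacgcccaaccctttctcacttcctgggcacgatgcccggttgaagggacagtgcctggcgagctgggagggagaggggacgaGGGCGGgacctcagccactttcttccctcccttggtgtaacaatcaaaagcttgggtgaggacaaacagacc
Col4a5, chrX:109907109-109907250: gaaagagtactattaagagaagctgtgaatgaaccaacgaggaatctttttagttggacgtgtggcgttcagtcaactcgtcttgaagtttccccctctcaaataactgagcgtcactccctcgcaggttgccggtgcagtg
The GC content was 78.9% between Col4a1 and Col4a2, 62% before Col4a3 and 47.9% before Col4a5, beside medians of 55.3%, 52% and 50% over the same windows of 27457 promoters. The motifs searched on both strands were the GC box GGGCGG, the CCAAT box CCAAT and the TATA box TATAAA, which do not overlap in these windows. A GC box was found once between Col4a1 and Col4a2, where 19.3% of promoters hold it in the same window, and once before Col4a3, where 32.4% do. In the window of Col4a5 none of the 3 was found, where 16.5%, 20.5% and 7.35% of promoters hold the GC, CCAAT and TATA box. A match describes letters and shows no binding.

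The next members by p in liver did not pass. Timp1, an inhibitor that cytokines induce, had 3.05, 3.65, 3.87 and 5.26 FPKM in LA liver and 3.58, 2.92, 3.39 and 3.47 FPKM in PF liver, which overlapped (log2 fold change 0.18, SE 0.13, adjusted p = 0.484). Mmp15 had 4.05, 4.51, 3.39 and 3.93 FPKM in LA liver and 5.12, 4.46, 5.04 and 3.82 FPKM in PF liver (log2 fold change -0.17, SE 0.10, adjusted p = 0.389). Mmp19 had 3.12, 2.41, 2.38 and 2.06 FPKM in LA liver and 2.29, 3.96, 3.85 and 2.49 FPKM in PF liver (log2 fold change -0.23, SE 0.15, adjusted p = 0.445). LA and PF libraries overlapped in all 3 genes.

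Other matrix genes in liver were counted from lists of related genes. None of 14 collagen-processing genes, 6 other basement membrane genes or 11 matrix receptors was called. Of 15 regulators of proteolysis, 2 rose and 2 fell in LA liver, where 2.27% of all genes were called higher and 2.21% lower. Ctsl1, listed under the older symbol of the lysosomal protease cathepsin L, had 449, 456, 418 and 518 FPKM in LA liver and 291, 317, 305 and 304 FPKM in PF liver (log2 fold change 0.59, SE 0.08, adjusted p = 0.00361). Adam15, a membrane disintegrin protease, averaged 8.16 ± 1.47 FPKM in LA liver and 4.68 ± 0.598 FPKM in PF liver (log2 fold change 0.68, SE 0.12, adjusted p = 0.0122). The 2 that fell belong to the plasmin system, which dissolves fibrin. Plg, plasminogen, averaged 772 ± 76.6 FPKM in LA liver and 1034 ± 70.9 FPKM in PF liver (log2 fold change -0.42, SE 0.10, adjusted p = 0.0341). Serpinf2, the plasmin inhibitor, averaged 213 ± 24.3 FPKM in LA liver and 309 ± 21.1 FPKM in PF liver (log2 fold change -0.54, SE 0.09, adjusted p = 0.0113). Of 8 other matrix proteins 1 fell, Dpt, dermatopontin, which binds decorin and collagen fibrils, with 389, 273, 411 and 372 FPKM in LA liver and 539.6, 508, 524 and 588 FPKM in PF liver (log2 fold change -0.59, SE 0.12, adjusted p = 0.0234). Of 13 genes of transforming growth factor beta signalling 1 fell, Ltbp4, which holds the latent growth factor in the matrix, with 2.94, 3.16, 2.66 and 3.09 FPKM in LA liver and 4.65, 4.96, 4.58 and 5.69 FPKM in PF liver (log2 fold change -0.59, SE 0.09, adjusted p = 0.00486). These 6 genes are named because they were called. Their LA and PF liver libraries did not overlap, as for 5.89% of all genes with LA higher and 6.39% with LA lower.

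Some markers of liver cell types were called in the same comparison, where 2.27% of all genes were called higher and 2.21% lower. The stellate cell list, of the main collagen-making cells of liver, had 1 of 7 genes called, Lrat, lower in LA liver, and summed levels of 71.9 to 104 FPKM in LA liver and 80.6 to 105 FPKM in PF liver. Of 7 endothelial genes, Stab2 and Tie1 were lower, with summed levels of 29.6 to 31.9 FPKM in LA liver and 28.5 to 36.1 FPKM in PF liver. Of 7 macrophage genes, Cd163 and Clec4f were higher, with summed levels of 136 to 187 FPKM in LA liver and 90.3 to 111 FPKM in PF liver. Of 10 hepatocyte genes, Fga and Fgg were lower, with summed levels of 28033 to 34289 FPKM in LA liver and 37121 to 45627 FPKM in PF liver. The stellate and endothelial sums overlapped between the feeds. In the mean, 3 stellate genes were higher in LA liver and 4 lower, and 2 endothelial genes were higher and 5 lower. For macrophage genes the numbers were 6 higher and 1 lower, and for hepatocyte genes 1 higher and 9 lower. The part of these cell types in the values of Col4a5, Plg, Serpinf2 and the others was not tested.

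In fat, 52 members could be tested, with Col4a3bp among them and Col13a1 left out by its level, and none was called with limma. Among all genes tested 0.0174% were called, that is 2 of 11501. At an unadjusted p under 0.05 there was 1 member of 52, Col17a1, beside 3.92% of all genes. The median log2 fold change, LA over PF, was 0.03 over the members and 0.01 over all genes, and their range ran between -0.47 and 0.69. The fibrillar collagens lay between 0.01 and 0.21, the laminins between -0.06 and 0.19 and the Mmp genes between -0.24 and 0.15. For Col3a1 the value was 0.09, SE 0.21, adjusted p = 1.00, and for Col6a3 it was 0.23, SE 0.38, adjusted p = 1.00. With the term for the 4 fat libraries, Col3a1 had SE 0.21 and adjusted p = 0.947, and Col6a3 had SE 0.15 and adjusted p = 0.735. With standard errors of this size, small changes of these genes were not detectable.

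**Figure D3:**
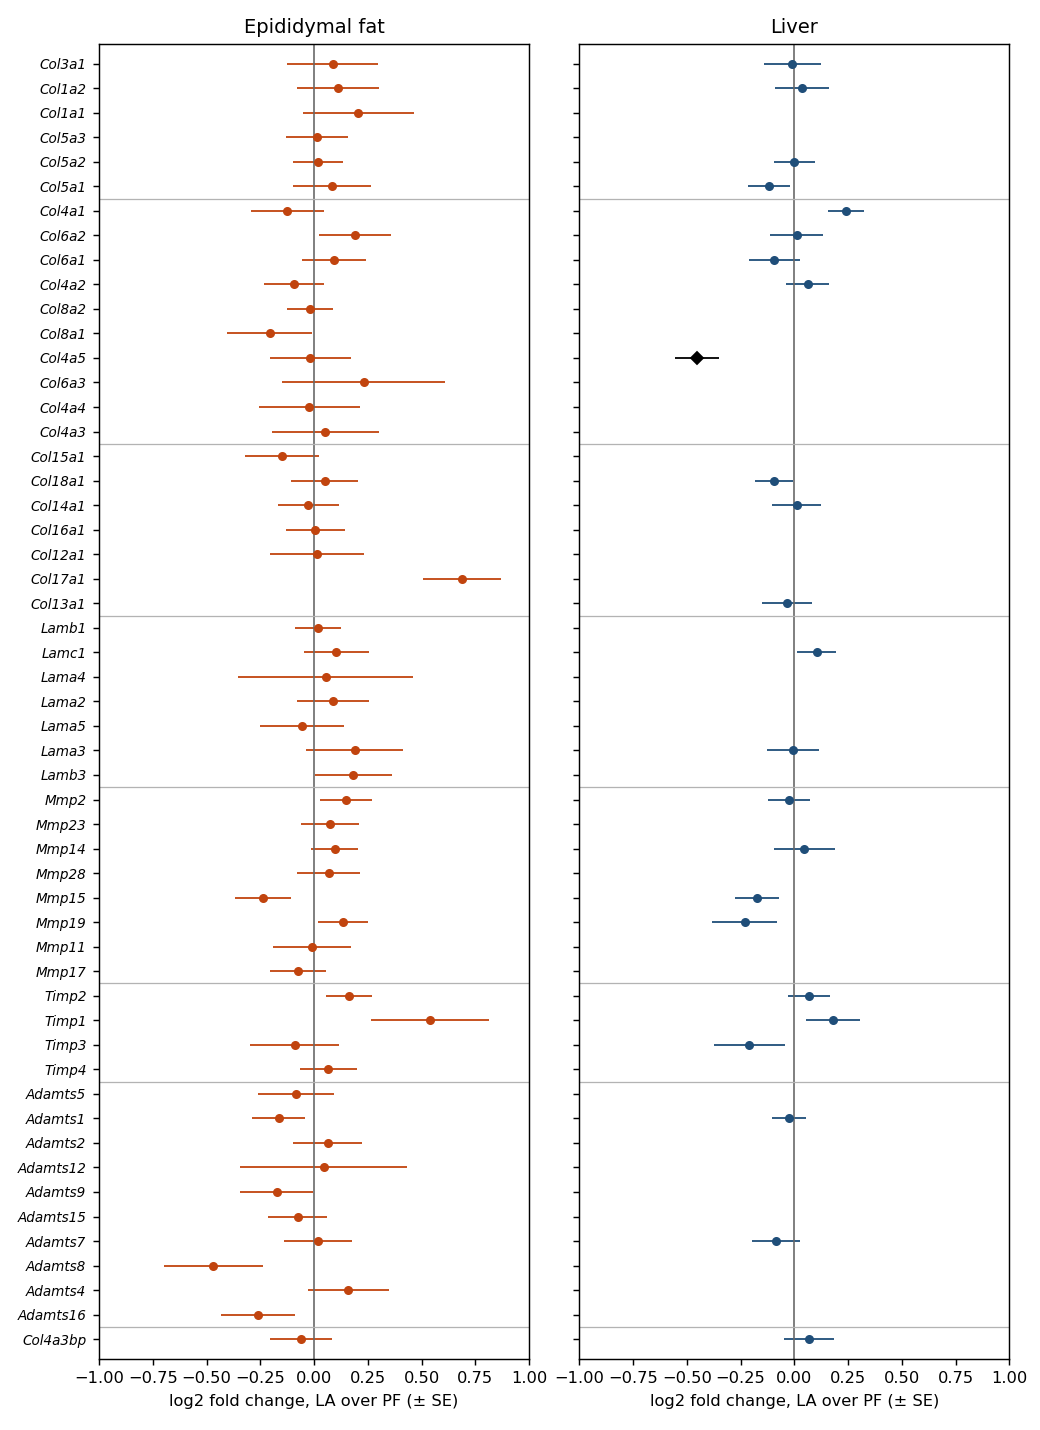
Log2 fold change, LA over PF, with its standard error, for each member tested in epididymal fat (left) and in liver (right). Circles did not pass an adjusted p of 0.05, and the black diamond, Col4a5 in liver, did. Most values lie near 0, and Col17a1, Timp1 and Adamts8 lie farthest from 0 in fat.

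Col17a1 encodes collagen XVII, a membrane collagen known from the attachment of skin epithelium. It had 5.64, 2.74, 3.24 and 2.83 FPKM in LA fat and 1.68, 2.12, 1.67 and 1.69 FPKM in PF fat. Every LA library was above every PF library, as for 1.32% of all genes, and replicate 1 was the highest LA library. The log2 fold change was 0.69 (SE 0.18, unadjusted p = 0.00387, adjusted p = 1.00), and 0.50 without LA replicate 1. With a term for the 4 libraries that stood apart the adjusted p was 0.473, and over the alternatives run it was between 0.0949, with all 16 libraries in one model, and 1.00. Liver did not exceed 0.0227 FPKM.

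Timp1 had 169, 73.3, 111 and 81.9 FPKM in LA fat and 51.8, 100.1, 63.3 and 75.1 FPKM in PF fat. The feeds overlapped, with LA replicate 1 the highest and PF replicate 1 the lowest library (log2 fold change 0.54, SE 0.27, adjusted p = 1.00). Without LA replicate 1 the log2 fold change was 0.30. With the term for the 4 fat libraries, limma gave SE 0.15, an unadjusted p of 0.00656 and an adjusted p of 0.563. The summed level of the macrophage markers in the same libraries was 2413, 1185, 1587 and 1277.5 FPKM in LA fat and 1060, 1271, 833 and 1220 FPKM in PF fat, with Emr1 and Marco listed at 0. LA replicate 1 was thus highest for Col17a1, for Timp1 and for the sum of these markers. That is not particular to macrophage markers. The same library was the highest in fat for adipocyte, fibroblast and stellate markers, at 42907, 2714 and 191 summed FPKM. For hepatocyte, endothelial, mesothelial, smooth muscle, and mast cell and neutrophil markers another fat library was highest. Among members it was also highest for Col1a1, Col3a1 and Mmp2, but not for Col4a1, Col6a1 or Timp2. Single macrophage markers differed: Cd68 and Gpnmb were highest in LA replicate 1, and Cd163 and Csf1r in LA replicate 4. The part of the markers in these values was not tested.

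**Figure D4:**
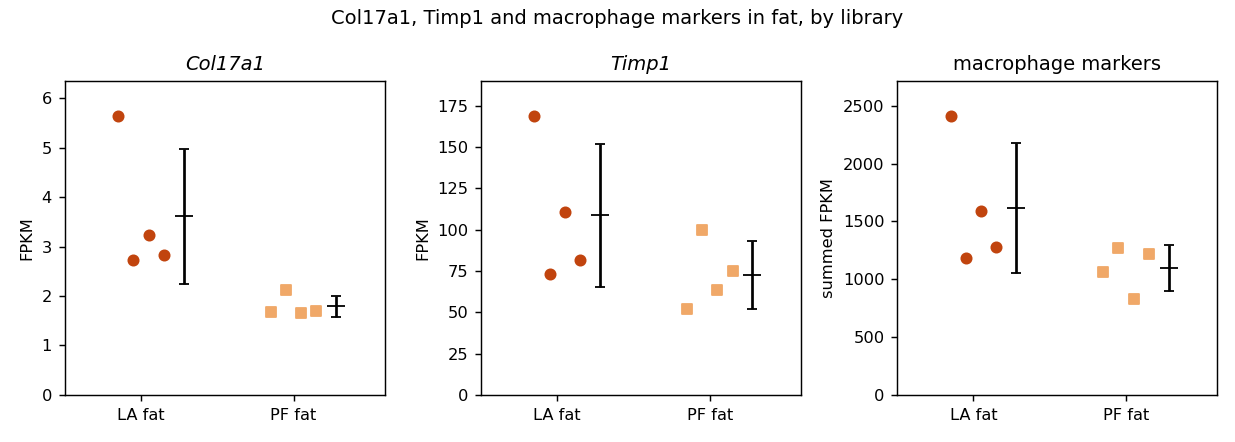
Level of Col17a1 and Timp1 in FPKM and the summed FPKM of the macrophage markers in each fat library. Circles are LA fat, squares PF fat, and the bar beside them is the mean with its SD over 4 libraries. LA replicate 1 is the highest circle in all 3 panels, at 5.64 FPKM, 169 FPKM and 2413 summed FPKM. The same library was also highest for the adipocyte, fibroblast and stellate sums, which are not drawn.

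Adamts8, an enzyme described as inhibiting vessel growth, was the lowest by fold. It had 0.466, 1.44, 0.870 and 0.563 FPKM in LA fat and 0.875, 2.28, 2.06 and 1.04 FPKM in PF fat, which overlapped (log2 fold change -0.47, SE 0.23, adjusted p = 1.00). Timp2 in fat had the values given above, and its log2 fold change was 0.16, SE 0.11, adjusted p = 1.00. For Mmp15, with 9.01, 10.8, 12.5 and 9.03 FPKM in LA fat and 14.1, 13.1, 10.3 and 11.9 FPKM in PF fat, it was -0.24, SE 0.13, adjusted p = 1.00. The feeds overlapped in all 3 genes. With the term for the 4 fat libraries the adjusted p was 0.686 for Adamts8, 0.701 for Timp2 and 0.701 for Mmp15. The summed level of the 4 Timp genes was 403 to 445 FPKM in LA fat and 339 to 400 FPKM in PF fat, a description of sums with no test. It was the only class sum in fat without overlap of the feeds. The sums of all other classes, and of the 52 matrix genes together, overlapped. None of 19 collagen-processing genes, 13 other basement membrane genes, 18 matrix receptors, 20 other matrix proteins, 21 regulators of proteolysis and 21 genes of transforming growth factor beta signalling was called in fat.

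Within each feed, the fat libraries differed more for some matrix genes than the feeds did. Adamts12, a protease that cuts cartilage matrix protein, had 1.98, 5.15, 2.42 and 5.86 FPKM in LA fat and 6.02, 1.71, 5.82 and 1.94 FPKM in PF fat. Lama4 had 7.26, 20.5, 10.3 and 20.4 FPKM in LA fat and 19.5, 7.94, 21.7 and 7.90 FPKM in PF fat. In both genes, and in Col6a3 above, LA replicates 2 and 4 and PF replicates 1 and 3 were the 4 high libraries, and the other 4 were lower without overlap. The same order of libraries was seen in 13 of 52 members, which besides these were Col4a3, Col4a4, Lama2, Lama3, Lama5, Lamc1, Timp3, Adamts2, Adamts5 and Mmp17, beside 15.8% of all genes tested. The opposite order was seen in none of the 52, beside 9.69% of all genes. Timp3 had 47.1, 87.1, 63.2 and 79.8 FPKM in LA fat and 84.6, 64.4, 87.5 and 56.1 FPKM in PF fat. The fibrillar collagens, Col4a1, Col4a2, Col6a1 and Col6a2 did not follow this order. Col6a3 followed it while its partners Col6a1 and Col6a2 did not.

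**Figure D5:**
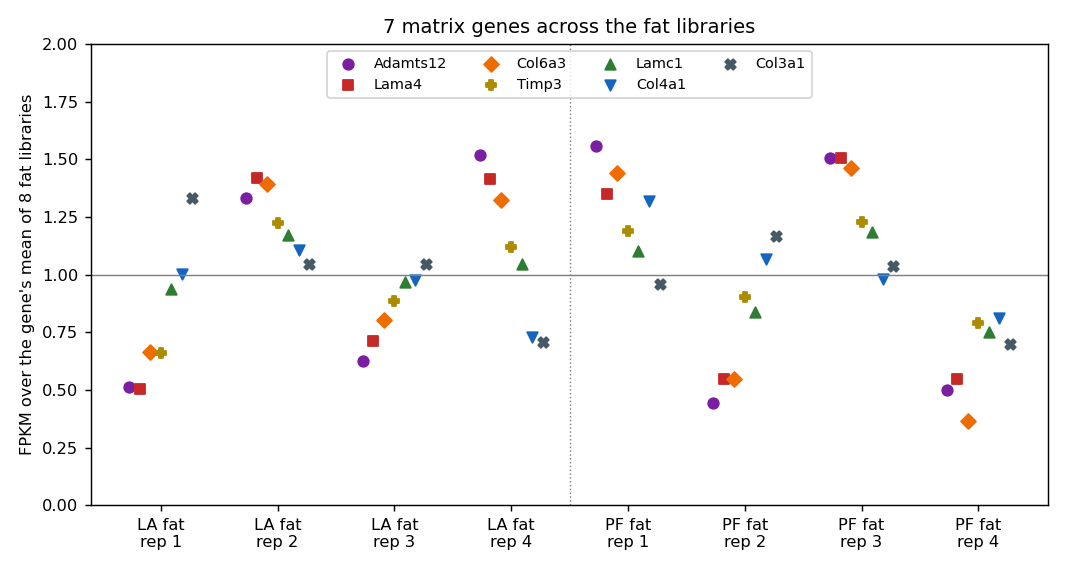
FPKM of 7 genes in each fat library divided by the mean of that gene over the 8 fat libraries. LA libraries are on the left and PF libraries on the right. Adamts12, Lama4 and Col6a3 are above 1 in LA replicates 2 and 4 and PF replicates 1 and 3 and below 1 in the other 4 libraries, whereas Col3a1 and Col4a1 do not follow that order.

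The test of a difference between the feed effects, LA over PF in fat minus LA over PF in liver, called none of 53 members with limma, beside 0.381% of all genes. Of these members, 28 reached 1 FPKM in fat and in no liver library. Where liver lies near 0 FPKM, the liver effect on log2(FPKM + 1) is near 0 whatever the feed does. For Col17a1 and Adamts8 liver did not exceed 0.0227 and 0.0353 FPKM, so their differences restate the effects in fat. At an unadjusted p under 0.05 there was 1 member of 53, beside 8.2% of all genes. For Col17a1 the difference was 0.68, SE 0.20, adjusted p = 0.217, with an adjusted p of 0.0807 when the term for the 4 fat libraries was added. For Col4a5, called in liver and at -0.02, SE 0.19, adjusted p = 1.00 in fat, the difference was 0.44, SE 0.22, adjusted p = 0.665. For Col4a1 it was -0.36, SE 0.19, adjusted p = 0.682, for Mmp19 0.37, SE 0.20, adjusted p = 0.704 and for Adamts8 -0.47, SE 0.24, adjusted p = 0.682. With the same term the adjusted p was 0.481 for Col4a5, 0.507 for Col4a1, 0.524 for Mmp19 and 0.511 for Adamts8. A feed effect of Col4a5 that is particular to liver was therefore not shown. Among 21 genes of transforming growth factor beta signalling 1 was called, Ltbp4, with a difference of 0.74 (adjusted p = 0.0455), close to the threshold. It averaged 63.8 ± 5.88 FPKM in LA fat and 57.6 ± 9.97 FPKM in PF fat. None of 19 collagen-processing genes, 13 other basement membrane genes, 18 matrix receptors, 20 other matrix proteins and 21 regulators of proteolysis was called for this difference.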

How the data were processed

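Per the labels' protocols, TRIzol and RNeasy columns were used for RNA extraction and the TruSeq V2 kit for the libraries. That kit does not mark strand, so overlapping genes on opposite strands share reads. The submitters' processing notes name CASAVA 1.8.2, TopHat and Cuffdiff. What genome build they used is not given in the sources used here. Per the file headers, the authors deposited FPKM, with 1 value for a gene symbol in a library. Counts were not used here, so depth is known only in relative terms and no count test was run.

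The tests were made with limma 3.58.1 (R 4.3.3) on log2(FPKM + 1), using its trend of variance over mean and p-values adjusted by Benjamini and Hochberg over all genes of a fit. A gene entered a fit if 4 or more of its libraries reached 1 FPKM. Fold changes understate the change of low genes. Calls needed an adjusted p below 0.05 and, for tissues, a log2 fold change beyond 1 as well. Each comparison used 8 libraries, and the difference of feed effects used 16. Libraries were treated as independent because the labels do not tie tissues to rats; the labels call replicates biological.

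Members, lists of related genes and cell type markers were chosen with earlier results of these data known. The genes named were the members called, the 5 smallest p in a feed comparison with fewer than 5 calls, the 4 highest in each class and tissue, those called higher in liver, and a preset. Those named for just passing or missing the level or for their order over the fat libraries, Col8a1, Col8a2, Lamb2 and Col2a1 were added after their values were seen. The alternatives were another pseudocount (0.1), no filter on low values, centring on the median, a replicate block, each library left out, no trend, all 16 libraries in one model, and, chosen after seeing the data, a term for 4 fat libraries. The fit was also run on simulated data with independent noise, without the split of the fat libraries, and with planted changes larger than any feed change of a member. That run does not bear on changes as small as that of Col4a5. In the RefSeq promoter table of GRCr8, 39 of 53 members matched by symbol. Figures were drawn with matplotlib 3.10.9.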

Additional observations from a re-analysis of the deposited data

Results flagged for a closer look

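Among 124 sets of 4 libraries (a named member within a group, where that member was tested in that tissue), 5 held a library far from the other 3, by a gap test that chance passes in about 1 of 20 sets. Col17a1 was 2.12 FPKM in PF fat replicate 2, against 1.68, 1.67 and 1.69 FPKM in the other PF fat libraries, and all 4 LA fat libraries were above it. Col6a1 was 258 FPKM in LA fat replicate 2, against 216, 211 and 213 FPKM in the other LA fat libraries. Mmp2 was 1.16 FPKM in LA liver replicate 2, against 1.02 FPKM in each of the other LA liver libraries. PF liver replicate 1 was low for Mmp2, at 0.781 FPKM against 1.23, 1.17 and 1.20 FPKM in the other PF liver libraries. The same library was low for Col5a1, at 0.786 FPKM against 1.19, 1.20 and 1.18 FPKM. No feed call rests on any of these 4 genes.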

How the results depend on the processing

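The number of members called for feed in liver was 1 in the fit as described, and 0 with no filter on low values and with all 16 libraries in one model; the cause was not tested. With single libraries left out it was between 0 and 1. A pseudocount of 0.1, median centring, no trend and the replicate block kept it at 1. In fat, and for the difference of feed effects, it was 0 under every alternative run, the term for the 4 fat libraries included. Between tissues it was 43 under LA, with 35 to 45 over the alternatives, and 41 under PF, with 36 to 45.

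Over all genes, calls for feed in liver numbered 435, and 224 without LA replicate 2 and 271 without PF replicate 1. Calls in fat numbered 2, with 1 to 7 over the alternatives. For the difference of feed effects there were 46, with 22 under no filter, 72 with the term for 4 fat libraries and 20 to 61 with single libraries left out. Of the named members, 4 values changed sign, all under median centring between tissues: Lama3 at -0.091 under LA and -0.29 under PF, and Lamb3 at -0.063 and Mmp19 at -0.13 under PF, none past the threshold before or after. Centring moved the median of all genes between tissues from 0.65 under LA and 0.66 under PF to -0.02 under each feed, which by construction lowers every fold change, fat over liver. Of the other values of single members, 8 moved past the threshold, 15 moved back from it and 1242 did neither.

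No consistent pairing by replicate number was seen. The correlations of deviations between libraries of the same number were 0.00 to 0.15 between feeds in liver and -0.43 to -0.06 between feeds in fat. They were -0.23 to 0.12 between tissues under LA and -0.03 to 0.30 between tissues under PF. Some libraries correlated best with their own number and others did not. Between feeds in fat, each LA library correlated best with a PF library on its own side of the split described above. These correlations therefore cannot exclude a pairing by number. With the replicate block, members called numbered 1 for feed in liver, 0 in fat, 43 and 41 between tissues under LA and PF, and 0 for the difference of feed effects. The block gave 476, 1, 5372, 5447 and 32 calls over all genes in the same order.

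Members below a few FPKM, Col4a5 in liver among them, rest on few fragments, and the deposited values do not give their number.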

Other observations

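Further lists of cell type markers were summed in the same libraries. In LA fat and PF fat, mesothelial markers summed to 145 to 480 FPKM and 55.6 to 406 FPKM, with all 8 genes higher in the mean in LA fat and none called. Fibroblast markers summed to 2099.5 to 2714 FPKM in LA fat and 2168 to 2362 FPKM in PF fat, and to 279 to 417 FPKM in LA liver and 513 to 596 FPKM in PF liver, where Dpt made up most of the sum. Smooth muscle markers summed to 95.4 to 119 FPKM in LA fat and 101 to 129 FPKM in PF fat, and to 18.3 to 24.2 FPKM in LA liver and 17.0 to 25.0 FPKM in PF liver. Mast cell and neutrophil markers summed to 108 to 126 FPKM in LA fat and 105 to 138 FPKM in PF fat, and stayed between 1.90 and 6.39 FPKM in liver. Endothelial markers in fat summed to 145 to 196 FPKM under LA and 147 to 198 FPKM under PF, and stellate markers to 149 to 191 FPKM under LA and 131 to 169 FPKM under PF. No gene of these 6 lists was called for feed in fat.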
